A study of Mus musculus with 11 samples.

Results

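The hairpin miR-151 and its 2 mature arms, miR-151-5p and miR-151-3p, were followed through 11 small RNA libraries of mouse splenic CD8+ T cells. Both were found by name in the deposited table, where mmu-miR-151-5p and mmu-miR-151-3p are 2 of its 2128 rows. The hairpin was chosen by the levels of its arms in an earlier pass over these libraries, above all by the difference between virtual memory and naive cells of clean mice. How far that difference changed between dirty and clean mice was also known at that point. A microRNA (miRNA) hairpin is cut by Drosha and Dicer into a short duplex, and either strand of it, the 5p or the 3p arm, can be loaded into Argonaute, where its seed (bases 2 to 8) pairs with target messenger RNAs. The arms are made in equal numbers, and what is measured afterwards reflects in part which strand is kept. miR-151 is an intronic miRNA: its host gene Ptk2 encodes focal adhesion kinase, a tyrosine kinase of integrin signalling.

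The libraries came from sorted cells that were CD4-, CD8+, CD49d low and GFP+, and CD44 divided them into CD44hi virtual memory (VM) and CD44lo true naive (TN) cells, both called stamped in the labels. VM cells are CD8+ T cells that look like memory cells without having met a foreign antigen. The mice were labelled dirty or clean, which gave 3 Dirty_VM, 3 Dirty_TN, 3 Clean_VM and 2 Clean_TN libraries (replicates 2 and 3). The labels define neither dirty, clean nor stamped, and strain, age and sex are not given in the sources used here. Whether replicates of a group are separate animals is not stated. The p-values below therefore set differences only against the variation between these libraries, which may be technical.

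Total estimated counts ranged from 2614396 to 16312004 per library, and 5 libraries had at most 4116012 while 6 had at least 9399645. The lymphocyte miRNA miR-150-5p stood at 66249 to 134280 CPM (counts per 1000000, on totals scaled by the TMM method) and the blood cell miRNA miR-142a-3p at 1388 to 1967 CPM, while the myeloid miR-223-3p reached 3.12 CPM at most. Not all miRNAs of other cell types were scarce: the liver miRNA miR-122-5p stood at 851 to 2738 CPM, and 6 epithelial miRNAs summed to 1235 to 2201 CPM. One library stood apart from its replicates: over miRNAs, the chi-square per degree of freedom between Dirty_TN replicate 3 and its partners was 510 and 1651, against 35.9 to 223 for the other within-group pairs. For the arms of miR-151, group comparisons and within-group spreads that rest on that library are given with and without it. Ranges over libraries are given with it only.

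The miR-151 hairpin lies on the minus strand of mm10 at chr15:73254815-73254882 in GENCODE M21, and Ptk2 spans 73205102 to 73423280 on the same strand. Of the 5 annotated Ptk2 transcripts that span the hairpin, 2 are protein coding and none holds it in an exon. It falls in an intron from 73242478 to 73257033, which is intron 22 in 1 protein-coding transcript and intron 23 in the other.

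The miRNAs related to miR-151 are those of the miR-28 and miR-708 hairpins, which arose with it from LINE-2 repeat sequence. miR-28a lies in an intron of Lpp and miR-708 in an intron of Tenm4. Their mature sequences are shown because the arms of miR-28a are set beside those of miR-151 below. They are RefSeq sequences on GRCm38.p6, written 5′ to 3′ with the seed in capitals, and 5 of the 8 rows of miR-151 and its relatives matched an entry by name. Of the matched rows, only the arms of miR-28a and miR-708 are shown.
miR-28a-5p: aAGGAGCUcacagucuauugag
miR-28a-3p: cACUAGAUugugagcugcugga
miR-708-5p: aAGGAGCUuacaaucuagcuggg
miR-708-3p: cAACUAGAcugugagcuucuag
The 5p arms of miR-28a and miR-708 had the same seed, AGGAGCU, and the 3p arms had the overlapping seeds ACUAGAU and AACUAGA. No other mature miRNA of the RefSeq table carried any of these 3 seeds.

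miR-151-5p had 17.9, 74.0 and 48.3 CPM in Dirty_VM replicates 1, 2 and 3, and 79.8, 147 and 10.3 CPM in Dirty_TN replicates 1, 2 and 3. In clean mice it had 362, 445 and 316 CPM in Clean_VM replicates 1, 2 and 3, and 14.9 and 13.9 CPM in Clean_TN replicates 2 and 3. The 3 Clean_VM libraries were the highest of the 11, and the dirty libraries spread from below the Clean_TN level up to 147 CPM. Its largest level was 43.2 times its smallest, with counts between 46 and 4568 per library.

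miR-151-3p was the more abundant arm in every library. It had 293, 500 and 427 CPM in Dirty_VM replicates 1, 2 and 3, and 402, 410 and 180 CPM in Dirty_TN replicates 1, 2 and 3. Clean_VM replicates 1, 2 and 3 had 880, 1225 and 1297 CPM, and Clean_TN replicates 2 and 3 had 224 and 280 CPM. The 3 Clean_VM libraries were again above all others, and the range over libraries was 7.20-fold. By the mean of the 4 group means, miR-151-3p ranked 90th and miR-151-5p 132nd in abundance among the 545 rows with enough counts to be tested.

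**Figure D1:**
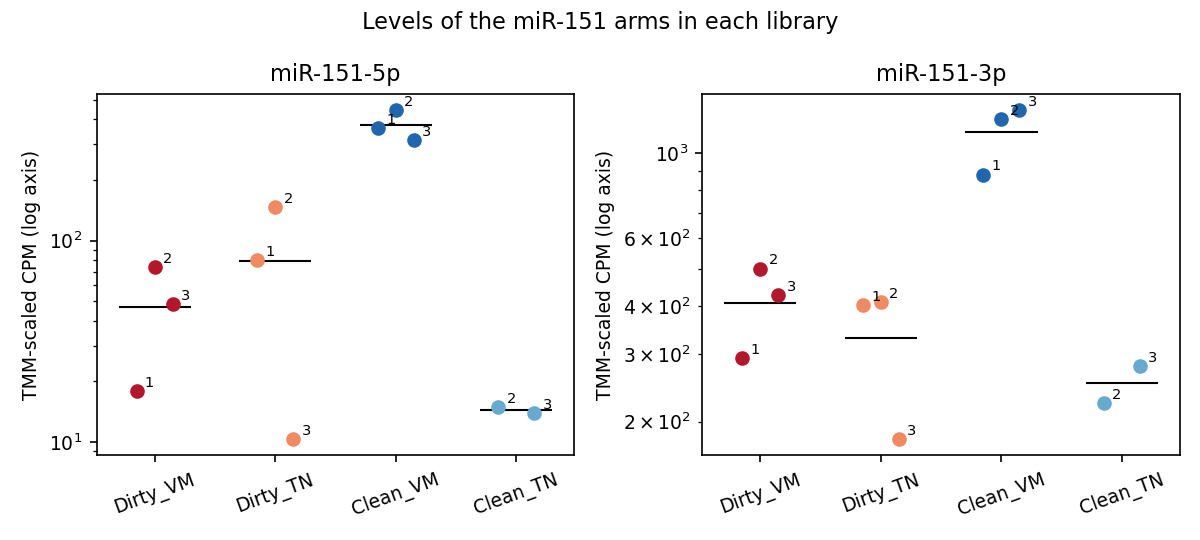
Levels of miR-151-5p (left) and miR-151-3p (right) in TMM-scaled CPM on a log axis; each point is a library with its replicate number, and each line the mean of a group. For both arms the 3 Clean_VM libraries lie above all others, and Dirty_TN replicate 3 lies lowest, at 10.3 CPM for 5p and 180 CPM for 3p.

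The order of the groups by their means differed between the arms in the dirty groups. For miR-151-5p it was Clean_VM (374 ± 65.7 CPM, SD, n = 3), Dirty_TN (79.1 ± 68.4, n = 3), Dirty_VM (46.7 ± 28.1, n = 3) and Clean_TN (14.4 ± 0.762, n = 2). For miR-151-3p it was Clean_VM (1134 ± 223 CPM), Dirty_VM (407 ± 105), Dirty_TN (331 ± 131) and Clean_TN (252 ± 39.5). In both orders the neighbours below Clean_VM overlapped each other over libraries, except that for miR-151-5p every Dirty_VM library was above both Clean_TN libraries, by 17.9 against 14.9 CPM at the closest. Without Dirty_TN replicate 2 the mean of miR-151-5p in Dirty_TN was 45.1 CPM, below that of Dirty_VM, so the difference in order between the arms rested on that library. Without Dirty_TN replicate 3 the Dirty_TN means were 113 CPM for miR-151-5p and 406 CPM for miR-151-3p, the last against 407 CPM in Dirty_VM.

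Since the clean-mouse values were used to choose the hairpin, they are given with no test. In clean mice miR-151-5p was 26.0-fold and miR-151-3p 4.51-fold higher in VM than in TN cells by group means, with fitted log2 changes of 4.70 ± 1.09 and 2.17 ± 0.37 (SE). Both arms had VM libraries that all lay above the TN libraries, as did 28.3% of the 545 rows. In size of the fitted change miR-151-5p ranked 3rd and miR-151-3p 34th among the rows, whose median was 0.08. In bulk samples of this kind, a smaller fraction of cells with a miRNA and less of it per cell cannot be told apart.

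Summed levels of miRNAs of other cell types were also higher in Clean_VM than in Clean_TN libraries, without overlap for 5 of the 6 lists. Of the 545 single rows, 28.3% were higher in Clean_VM without overlap. The summed level of 4 hepatocyte and muscle miRNAs was 1224 to 2755 CPM in Clean_VM and 860 to 1088 CPM in Clean_TN, nearly all of it the liver miRNA miR-122-5p. Summed levels in Clean_VM and Clean_TN were 61.5 to 137 and 35.2 to 45.9 CPM for 4 erythroid miRNAs, and 1517 to 1863 and 1235 to 1324 CPM for 6 epithelial ones. For 4 stromal miRNAs they were 67.4 to 113 CPM in Clean_VM and 46.7 to 58.6 CPM in Clean_TN, and for 2 endothelial ones 21.7 to 47.7 and 18.4 to 19.3 CPM. The 2 myeloid miRNAs overlapped, at 0.268 to 3.61 CPM in Clean_VM and 1.20 to 1.27 CPM in Clean_TN. Each list had a count for every member, and the erythroid miR-144-3p, at 0 in at least 1 library of every group, never passed 0.501 CPM. Single members did not all follow their list: the erythroid miR-451a overlapped, at 5.37 to 28.1 CPM in Clean_VM and 13.3 to 16.9 CPM in Clean_TN. The stromal miR-145a-5p, the epithelial miR-205-5p and the muscle miRNA miR-133a-3p overlapped too. By contrast, miR-122-5p, the stromal miR-143-3p and the endothelial miR-126a-3p were higher in Clean_VM without overlap. The part of other cell types in the miR-151 difference was not tested. The 6 lymphocyte miRNAs summed to 85860 to 113452 CPM in Clean_VM and 140031 to 148285 CPM in Clean_TN. Most of that sum was miR-150-5p alone, at 77261 to 103730 CPM in Clean_VM and 127385 to 134280 CPM in Clean_TN. Another member, miR-142a-3p, overlapped, at 1398 to 1778 CPM in Clean_VM and 1467 to 1761 CPM in Clean_TN.

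In dirty mice the lymphocyte list, again mostly miR-150-5p, summed to 88869 to 103701 CPM in VM and 77505 to 143424 CPM in TN cells. The hepatocyte and muscle list summed to 1248 to 2489 CPM in Dirty_VM and 928 to 1835 CPM in Dirty_TN, the erythroid list to 64.1 to 109 and 38.1 to 76.2 CPM, and the epithelial list to 1757 to 2201 and 1285 to 1780 CPM. The stromal list summed to 80.9 to 130 CPM in Dirty_VM and 54.5 to 85.2 CPM in Dirty_TN, the endothelial list to 29.6 to 53.0 and 15.3 to 29.7 CPM, and the myeloid list to 1.64 to 2.98 and 0.900 to 2.60 CPM. The dirty groups overlapped for all 7 lists.

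In dirty mice the question was whether the arms also differed between VM and TN cells there, in libraries that the clean comparison did not use. The change of the VM minus TN difference between dirty and clean mice was known when the hairpin was chosen. That change holds these dirty libraries, so the tests here are not independent of the choice. Neither arm passed, where 12.1% of the rows did at an adjusted p under 0.05 (edgeR quasi-likelihood test). The log2 change of miR-151-5p was -0.75 ± 0.80 (SE; 95% interval -2.57 to 1.06, adjusted p = 0.622). miR-151-3p had 0.30 ± 0.30 (95% interval -0.35 to 0.95, adjusted p = 0.597). The groups overlapped for both arms, where those of 30.5% of the rows did not, and both intervals held decreases as well as increases. Without Dirty_TN replicate 3 the log2 change of miR-151-5p was -1.24 ± 0.44 (edgeR adjusted p = 0.0804), and without Dirty_TN replicate 2 it was 0.07 ± 0.74 (edgeR adjusted p = 0.974), so single libraries set both its size and its sign. Without Dirty_TN replicate 3 miR-151-3p had 0.06 ± 0.23 (edgeR adjusted p = 0.887).

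miR-151-5p spread widely within the dirty groups. The SD of its log2 level was 1.04 in Dirty_VM and 1.97 in Dirty_TN, where the medians over the 545 rows were 0.33 and 0.40, and it ranked 41st and 10th among the rows. Without Dirty_VM replicate 1 the SD in Dirty_VM was 0.43 (rank 184), where the median over rows was 0.29. Without Dirty_TN replicate 3 that in Dirty_TN was 0.62 (rank 117), where the median was 0.28. Leaving out the library furthest from the others lowers any such SD, and both stayed above the medians. In the clean groups its SD was 0.25 in Clean_VM and 0.07 in Clean_TN, below the medians of 0.36 and 0.20. miR-151-3p spread less, with SDs of 0.40 in Dirty_VM, 0.68 in Dirty_TN, 0.30 in Clean_VM and 0.23 in Clean_TN. Without Dirty_TN replicate 3 its SD in Dirty_TN was 0.02, and without Dirty_VM replicate 1 that in Dirty_VM was 0.16.

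The comparison of dirty with clean mice asked whether the arms differed between environments within each subset. It shares the clean libraries with the comparison above, so its values are a description too. Within VM cells miR-151-5p averaged 46.7 CPM in dirty mice against 374 CPM in clean mice, and its fitted log2 change was -3.01 ± 0.84 (SE). miR-151-3p was 407 CPM in dirty and 1134 CPM in clean VM cells, with -1.48 ± 0.31. Without Dirty_VM replicate 2 the change of miR-151-5p was -3.62 ± 1.04. For both arms every Dirty_VM library was below every Clean_VM library, as were 8.99% of the rows. Within TN cells the fitted log2 changes were 2.44 ± 0.98 for miR-151-5p and 0.39 ± 0.34 for miR-151-3p, and for both arms the dirty libraries overlapped the clean ones, where those of 23.3% of the rows did not. Leaving out single libraries moved the change of miR-151-5p in TN cells between 1.49 ± 0.84, without Dirty_TN replicate 2, and 2.75 ± 0.53, without Dirty_TN replicate 3. It moved that of miR-151-3p between 0.08 ± 0.34, without Dirty_TN replicate 1, and 0.47 ± 0.26, without Dirty_TN replicate 3. The VM minus TN difference in dirty mice was then set against that in clean mice. In log2 it changed by -5.45 ± 1.31 for miR-151-5p and -1.87 ± 0.46 for miR-151-3p. The change of miR-151-5p was the largest of the 545 rows in either direction. Both values were known when the hairpin was chosen, so this rank is a description only. Without Dirty_TN replicate 3 these values were -5.82 ± 0.68 for miR-151-5p and -2.0 ± 0.34 for miR-151-3p. Over all single libraries left out, that of miR-151-5p ran from -5.99, without Dirty_VM replicate 2, to -4.62, without Dirty_TN replicate 2, and that of miR-151-3p from -2.13, without Clean_VM replicate 1, to -1.60, without Clean_VM replicate 3.

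**Figure D2:**
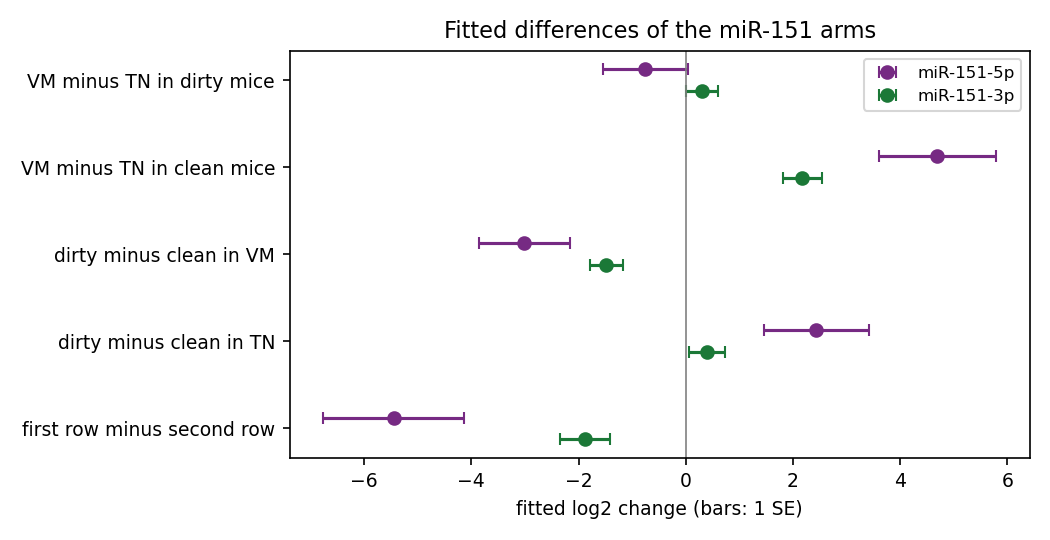
Fitted log2 changes of miR-151-5p and miR-151-3p in each comparison, with bars of 1 SE; the lowest pair is the VM minus TN difference in dirty mice minus that in clean mice. The 2 arms lie on the same side of 0 except for VM against TN cells in dirty mice, at -0.75 and 0.30.

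The values were also read within depth classes. Among the libraries with under 6000000 counts, miR-151-5p averaged 45.9 CPM in 2 Dirty_VM libraries and had 147 CPM in the Dirty_TN library, and 362 CPM in the Clean_VM and 13.9 CPM in the Clean_TN library. Among the deeper ones it had 48.3 CPM in the Dirty_VM library and averaged 45.1 CPM in 2 Dirty_TN libraries, and it averaged 381 CPM in 2 Clean_VM libraries against 14.9 CPM in the Clean_TN library. The gap of miR-151-5p between clean VM and TN cells was about as wide at either depth. For miR-151-3p the gap was wider in the deeper libraries, at 1261 CPM in Clean_VM (mean) against 224 CPM in Clean_TN. In the shallower ones miR-151-3p had 880 against 280 CPM. In dirty mice the order of the subsets for miR-151-5p at the deeper level rested on Dirty_TN replicate 3. Without it the deeper Dirty_TN library had 79.8 CPM of miR-151-5p against 48.3 CPM in Dirty_VM, the order of the shallower libraries.

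The balance of the arms varied between libraries along with the level of miR-151-5p. The 5p share of the hairpin's counts was 5.74%, 12.9% and 10.2% in Dirty_VM replicates 1, 2 and 3, and 16.6%, 26.4% and 5.42% in Dirty_TN replicates 1, 2 and 3. It was 29.1%, 26.7% and 19.6% in Clean_VM replicates 1, 2 and 3, against 6.26% and 4.72% in Clean_TN replicates 2 and 3. The widest of the 95% Wilson intervals ran from 24.5% to 28.4%, in Dirty_TN replicate 2, and such intervals cover counting error only. The 3 Clean_VM libraries and Dirty_TN replicate 2 had the 4 highest shares and also the 4 highest levels of miR-151-5p, and the 4 lowest shares belonged to the 4 libraries with the least of it. The share is computed from the miR-151-5p count itself, so share and level are not independent and this likeness is a description only.

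Because a ratio within a library needs no scaling between libraries, the arms were also compared as the log2 ratio of 5p over 3p. In dirty mice the mean ratio was -3.31 ± 0.65 in VM and -2.64 ± 1.35 in TN cells (SD, n = 3 each), a difference of -0.67 (two-sided exact permutation test, p = 0.5, where 3 against 3 libraries cannot go below 0.1). Like the tests of the levels in dirty mice, that test is not independent of the choice of the hairpin. Leaving out single libraries moved that difference between -1.40, without Dirty_TN replicate 3, and -0.08, without Dirty_TN replicate 2. In clean mice the mean ratio was -1.59 ± 0.40 in VM (n = 3) and -4.11 ± 0.29 in TN cells (n = 2), a difference of 2.52 that is given with no test since both arms were known beforehand.

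**Figure D3:**
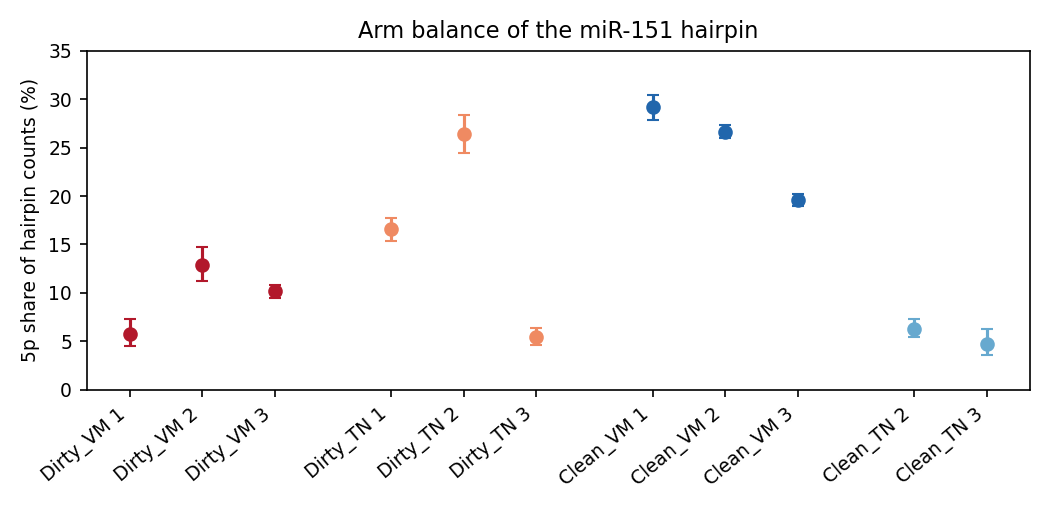
Share of the miR-151 hairpin's counts held by the 5p arm in each library, in percent, with 95% Wilson intervals that cover counting error only. The share is 19.6% to 29.1% in Clean_VM and 4.72% to 6.26% in Clean_TN libraries, and the dirty libraries run from 5.42% to 26.4%.

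Other hairpins gave a scale for this. Of 136 hairpins with 1 tested row for each arm, the range of the log2 arm ratio over the 11 libraries had a median of 2.06, and that of miR-151 was 3.04. A wider range was found in 35 hairpins, 34 of which had an arm with under 10 counts in some library and the other one of which had at least 37. Among the 43 hairpins with at least the 46 counts that miR-151 had at its lowest, the median was 1.65 and miR-151 had the widest range, followed by mir-342 with 2.66. That count minimum was set by miR-151 itself and chosen after the values were seen. Both ends of its range, -1.28 in Clean_VM replicate 1 and -4.32 in Clean_TN replicate 3, were clean libraries, whose levels chose the hairpin, so its place among the hairpins is a description only. Over the 6 dirty libraries alone its range was 2.64, where the median of the 43 hairpins was 1.36.

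**Figure D4:**
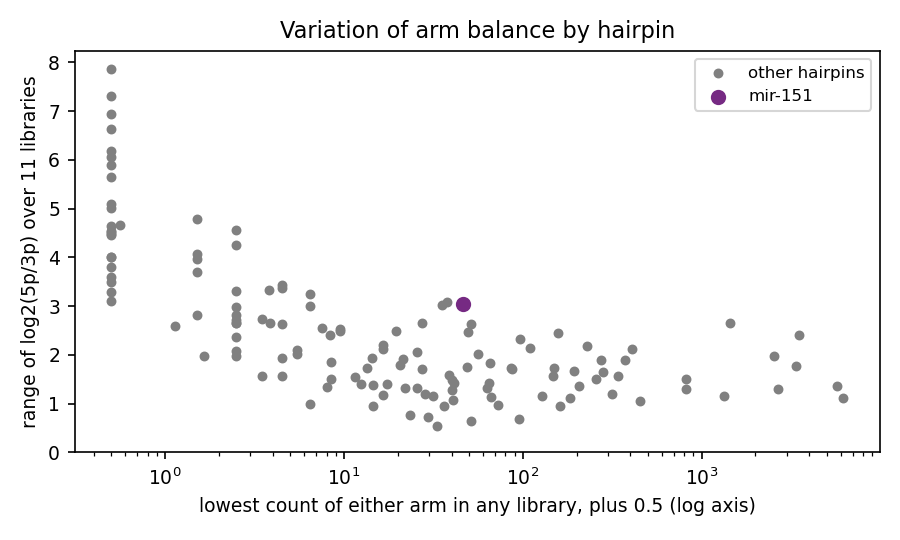
Range of the log2 ratio of 5p over 3p over the 11 libraries for 136 hairpins, against the lowest count of either arm in any library on a log axis (plus 0.5 so that 0 can be drawn). The hairpins with few counts spread widest, and mir-151, at 3.04, lies above all hairpins with more counts than it has.

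The related miRNAs were uneven in abundance, and 3 of their 6 rows had enough counts to be tested. miR-28a-3p had 669, 1066 and 942 CPM in Dirty_VM replicates 1, 2 and 3, and 1462, 1033 and 649 CPM in Dirty_TN replicates 1, 2 and 3. It had 1266, 1268 and 1440 CPM in Clean_VM replicates 1, 2 and 3, against 648 and 653 CPM in Clean_TN replicates 2 and 3. Like the arms of miR-151 it was higher in all clean VM libraries than in the clean TN ones, and in dirty mice its groups overlapped, as those of the arms did. Its highest library was a Dirty_TN one, where that of each arm was a Clean_VM one. Its partner miR-28a-5p varied less, at 199 ± 24.9 CPM in Dirty_VM (SD, n = 3) and 211 ± 15.7 in Dirty_TN (n = 3), and 203 ± 21.6 in Clean_VM (n = 3) and 157 ± 23.0 in Clean_TN (n = 2). miR-708-3p stayed at or below 2.24 CPM, miR-708-5p had 1 count in 1 library, miR-28c did not exceed 0.602 CPM and miR-28b had no count, where 3 counts would be 0.186 to 1.16 CPM.

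In clean mice 1 of the 3 tested relatives rose in VM cells and none fell, where 9.72% of the rows rose and 7.71% fell. It was miR-28a-3p, with a log2 change of 1.03 ± 0.30 (SE, edgeR adjusted p = 0.0351). miR-28a-5p had 0.37 ± 0.20 (edgeR adjusted p = 0.232) and miR-708-3p 1.71 ± 1.00 (edgeR adjusted p = 0.255). The call of miR-28a-3p was lost without Clean_TN replicate 2 (edgeR adjusted p = 0.172), Clean_TN replicate 3 (0.179), Clean_VM replicate 2 (0.0636) or Clean_VM replicate 3 (0.116), and with the replicate number as a block (0.0818). In dirty mice none of the 3 passed, with log2 changes of -0.23 ± 0.26 for miR-28a-3p and -0.08 ± 0.18 for miR-28a-5p (edgeR adjusted p = 0.64 and 0.822), and 1.60 ± 0.91 for the scarce miR-708-3p (edgeR adjusted p = 0.309). Between dirty and clean mice none of the 3 passed in either subset, where 0.0% of the rows did in each. At an unadjusted p under 0.05 there were 81 of the 545 rows in VM and 38 in TN cells, and DESeq2 called 19 in VM and 3 in TN cells. Without Dirty_TN replicate 3, 26 rows passed between environments in VM and 28 in TN cells (edgeR). miR-28a-3p was among the rows with an unadjusted p under 0.05 in both subsets. Its log2 change was -0.57 ± 0.26 in VM and 0.69 ± 0.30 in TN cells (edgeR adjusted p = 0.33 and 0.559).

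The lowest libraries were the same for several of these miRNAs, though not in the same order. The 4 libraries with the least miR-151-5p were Dirty_TN replicate 3, Clean_TN replicate 3, Clean_TN replicate 2 and Dirty_VM replicate 1, and no library lay between 17.9 and 48.3 CPM. They were also the 4 lowest for miR-151-3p, with a gap from 293 to 402 CPM, and for miR-28a-3p, with a gap from 669 to 942 CPM. They come from 3 of the 4 groups and include both subsets and both environments. Both Clean_TN libraries are among them and no Clean_VM library is, so in clean mice this split of the libraries and the subset cannot be told apart. Of the 545 rows, 39 had these 4 libraries as their lowest and 9 had them as their highest, counts that were made after the values were seen.

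The same 4 libraries had the highest TMM scaling factors, at 1.08 to 1.14 against 0.83 to 1.03 in the other 7. The factor is worked out from the tested miRNAs, with extreme ones trimmed, and enters every scaled level. Its part in this split was not tested. On library totals without the factor, the same 4 libraries were lowest for all 3 miRNAs, with a gap from 19.6 to 49.8 CPM for miR-151-5p, from 322 to 336 CPM for miR-151-3p and from 738 to 972 CPM for miR-28a-3p. They did not share their depth, since 2 were among the deeper and 2 among the shallower libraries, and miR-122-5p was 1688 CPM in Dirty_TN replicate 3 and 1881 CPM in Dirty_VM replicate 1, against 1071 and 851 CPM in Clean_TN replicates 2 and 3.

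**Figure D5:**
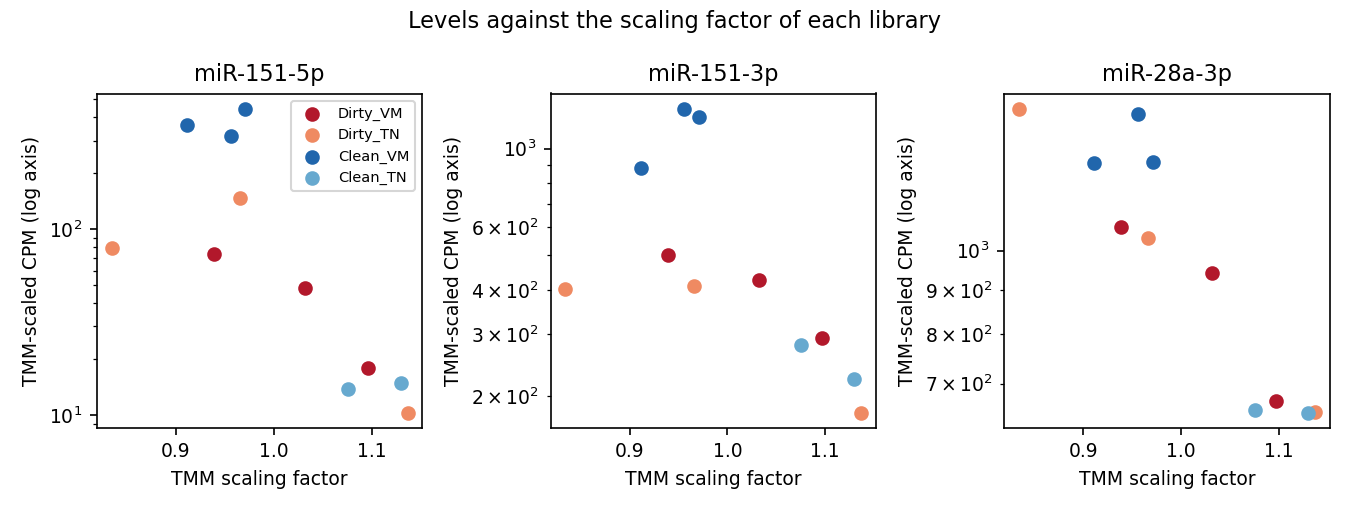
Levels of miR-151-5p, miR-151-3p and miR-28a-3p in TMM-scaled CPM on log axes against the TMM scaling factor of each library, coloured by group. In each panel the 4 libraries with factors of 1.08 or more have the 4 lowest levels, and they belong to Dirty_VM, Dirty_TN and Clean_TN.

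Likeness to the arms was measured as Pearson's r of log2 levels over the 11 libraries, which share scaling and group structure, and it is given with no test. The arms of miR-151 had r = 0.94 with each other (Spearman's rank correlation 0.89). The 5 rows most like miR-151-5p were miR-1964-3p (r = 0.96), miR-15a-5p (0.95), miR-30e-3p (0.94), miR-8103 (0.94) and miR-671-3p (0.93). The 5 most like miR-151-3p were miR-92a-3p on the row of hairpin mir-92a-1 (r = 0.96), miR-423-5p (0.95), miR-1964-3p (0.93), miR-1843a-3p (0.92) and miR-30e-3p (0.91). The median r of all other rows was -0.01 with miR-151-5p and -0.02 with miR-151-3p. Among the relatives, miR-28a-3p had r = 0.90 with miR-151-5p and 0.83 with miR-151-3p, while miR-28a-5p had 0.48 and 0.36.

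None of these rows spanned as wide a range between groups as miR-151-5p. miR-15a-5p, which represses Bcl2 and comes from the Dleu2 transcript, had 32.9 ± 3.87 CPM in Dirty_VM and 41.6 ± 20.3 in Dirty_TN (SD, n = 3 each), and 78.6 ± 19.7 in Clean_VM (n = 3) and 24.0 ± 0.707 in Clean_TN (n = 2). miR-92a-3p, of the Mir17hg cluster that promotes lymphocyte proliferation, had 58810 ± 9328 CPM in Dirty_VM and 50348 ± 9009 in Dirty_TN, and 73825 ± 3129 in Clean_VM and 48019 ± 1270 in Clean_TN. miR-1964-3p, close to both arms, had 239 ± 57.5 CPM in Dirty_VM and 242 ± 110 in Dirty_TN, and 406 ± 49.1 in Clean_VM and 142 ± 6.22 in Clean_TN. Their group means were highest in Clean_VM and lowest in Clean_TN, which choosing rows by their likeness to the arms over the same libraries favours.

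The neighbourhood of the hairpin on chromosome 15 was read from 32 rows, which matched 17 of the 33 miRNA genes annotated within 10 Mb of it, of which 12 could be tested. In clean mice 2 of the 12 rose in VM cells and none fell (edgeR), where 9.72% of all rows rose and 7.71% fell. In dirty mice none of the 12 passed, where 12.1% of all rows did, and between environments none passed in either subset, where 0.0% did. The list's median log2 change was -0.22 in clean mice, where that of all rows was 0.08. miR-1943-5p had 1.23 ± 0.37 (SE, edgeR adjusted p = 0.0359), a call lost without Clean_TN replicate 2 (0.177), Clean_TN replicate 3 (0.222), Clean_VM replicate 3 (0.16) or Dirty_VM replicate 3 (0.0562). miR-7213-5p, at 3.76 CPM or less, had 4.81 ± 1.38 (edgeR adjusted p = 0.0305), with a call lost without Clean_TN replicate 2 (0.159), Clean_TN replicate 3 (0.133), Clean_VM replicate 1 (0.0543) or Clean_VM replicate 2 (0.0717). Its size rested on Clean_TN replicate 2, without which the log2 change was 7.07 ± 2.76. The abundant neighbours, the miR-30b and miR-30d hairpins 4.92 and 4.91 Mb away, did not pass: in clean mice miR-30d-5p had a log2 change of -0.15 ± 0.24 and miR-30b-5p one of -0.90 ± 0.36 (edgeR adjusted p = 0.706 and 0.103).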

How the data were processed

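The authors deposited estimated counts (expected counts) per mature miRNA and hairpin, made from reads and left unscaled as far as the values show; 88.7% were whole. miR-151-5p had a fractional count in 5 of 11 libraries and miR-151-3p in none. The genome build was mm10, per the submitters' processing notes. The aligner, counter and annotation release are not given in the sources used here. Groups follow the titles. Repeated identical rows were kept once (2008 of 2128 left) and counts rounded. filterByExpr kept 545 rows. One edgeR 4.0.16 quasi-likelihood model (R 4.3.3, robust, TMM, 1 mean per group) was fitted over all 11 libraries, with Benjamini-Hochberg adjustment over the 545 rows and a threshold of 0.05. The SE is the log2 change over the root of the F statistic. The fit was tested on simulated data. Arm ratios used a pseudocount of 0.5, as did log2 levels for likeness. Alternatives are in the closing section, DESeq2 1.42.0 among them. Named rows were the arms, the miR-28 and miR-708 rows, miRNAs within 10 Mb and the 5 most alike rows per arm. Members, lists and tests were chosen with earlier results of these data known. Rows sharing a seed with miR-151 were not searched.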

Additional observations from a re-analysis of the deposited data

How the results depend on the processing

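Direction held for both arms in every comparison under the alternatives run, except that miR-151-5p in dirty mice reached a log2 change of 0.073 without Dirty_TN replicate 2. Leaving out single libraries gave -1.29 to 0.073 there, 4.38 to 4.77 for miR-151-5p and 1.87 to 2.38 for miR-151-3p in clean mice, and library totals gave 4.47 for miR-151-5p. Rows passing numbered 33 to 120 in clean and 42 to 94 in dirty mice when single libraries were left out, against 95 and 66. The 0 rows between environments in VM cells became 19 by DESeq2, 2 by library totals and 16 with no filter. They became 2 with the strict filter (10 CPM in at least 2 libraries) and 18 with only the groups compared. Without Dirty_TN replicate 3 they became 26, and without other single libraries they ran from 0 to 5. In TN cells they became 3 by DESeq2 and 4 with no filter. Without Dirty_TN replicate 3 they became 28 in TN cells, and without any other single library they stayed at 0. The cause was not tested.

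With the replicate block 56 rows passed in clean mice, and miR-151-5p had -0.59 in dirty mice. Same-numbered libraries deviated with r from -0.48 to 0.40 in dirty mice and 2 of 6 correlated best with their own number, so the numbers were not taken as pairs. Whether same-numbered libraries share an animal or a batch is not stated. The calls of miR-28a-3p, miR-1943-5p and miR-7213-5p were lost under the block, and that of miR-1943-5p also with library totals (edgeR adjusted p = 0.0584). The lowest count was 46, for miR-151-5p in Clean_TN replicate 3. Spreads within dirty groups without each library, and the arm ratio over dirty libraries alone, were added after seeing the data.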
